A study of Homo sapiens with 60 samples.

Results

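The genes described here are 10 markers by which astrocytes, neural progenitors and gliomas are recognised, read from the rows of a count table of 60675 genes: GFAP, VIM, NES, CLU, SOX9, SOX2, S100B, SLC1A3, GJA1 and ALDH1L1. They were chosen by name, with no threshold on a measured value. Of the 10 genes, 6 were expressed in the cells studied, with at least 1 CPM, a read count scaled to a common library size, in every vehicle library. These were VIM, GJA1, CLU, SOX9, SLC1A3 and NES. The other 4, GFAP, S100B, ALDH1L1 and SOX2, had at most 3 counts in any vehicle library.

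The cells were SW1783, an established human astrocytoma line, and their RNA was sequenced 24 h after treatment. Vehicle cells had 0.1% DMSO by the sample labels, while the series' own text gives another percentage. For treated cells the sample labels used here give no DMSO percentage. Treated cells had one of 8 water extracts: of Cnidii Rhizoma (called Cnidium here), Rehmanniae Radix Preparata (Rehmannia), Cinnamomi Cortex (Cinnamon), Astragali Radix (Astragalus), Angelicae Gigantis Radix (Angelica) or Paeoniae Radix (Paeonia), or of the mixed formulas Sagunja-tang (Sagunja) and Samul-tang (Samul). The doses were 500 (high), 100 (medium) and 20 µg/mL (low). Of the 60 libraries, 3 were vehicle. Samul had 2 per dose, Angelica and Paeonia 1, and the other preparations 3. All groups share the same line, which is a tumour line grown in culture, and no normal astrocytes or brain tissue are analysed here. Nothing in the labels tells whether replicates are separate cultures, so the p-values cover the spread between these libraries, which may be technical.

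On GRCh38 with GENCODE 29, VIM lies on chromosome 10 from 17228259 to 17237593, NES on chromosome 1 from 156668763 to 156677397 on the minus strand, and SOX9 on chromosome 17 from 72121020 to 72126420. SLC1A3 lies on chromosome 5 from 36606355 to 36688334, GJA1 on chromosome 6 from 121435577 to 121449727, and CLU on chromosome 8. Values are for the exons of each whole gene. The processed copy GJA1P1 had 54 counts in all libraries, or 0.0155% of those of GJA1. The antisense genes VIM-AS1, SLC1A3-AS1 and SOX9-AS1 had from 0.0214% to 0.280% of their partners' counts. No source used here tells how strand was treated in counting, so reads of antisense partners may not be separated.

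The 10 genes cover different parts of the astrocyte's life. GFAP, VIM and NES encode intermediate filament proteins: vimentin and nestin are the filaments of immature and progenitor cells, and GFAP is added as astrocytes mature or become reactive. SOX2 keeps neural progenitors undifferentiated, and SOX9 is a transcription factor that turns progenitors toward glia. SLC1A3 (GLAST, also EAAT1) takes up glutamate, GJA1 (connexin 43) forms the gap junctions that couple astrocytes, ALDH1L1 is a folate enzyme, S100B is a calcium-binding protein, and CLU (clusterin) is a secreted chaperone.

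VIM stood far above the other 9 genes. In the 3 vehicle libraries VIM was at 6032, 5824 and 5854 CPM, with a mean of 5903 ± 112 (SD, n = 3). GJA1 followed with 249 ± 3.58 CPM, CLU with 132 ± 5.14, SOX9 with 88.0 ± 2.19, SLC1A3 with 22.1 ± 0.517 and NES with 6.46 ± 0.830 CPM. Levels of different genes can be compared only per length, so each CPM was divided by the length of the gene's exons. Per kilobase (kb) of exon, VIM had 2412 CPM, GJA1 73.1, CLU 26.4, SOX9 22.4, SLC1A3 4.87 and NES 1.16. GJA1 thus had 3.03% of the level of VIM per kb, and NES 0.0482%.

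GFAP, the defining intermediate filament of mature astrocytes, was close to absent. It had 98 counts over all 60 libraries together, no more than 6 in any library and none in 13 of them. S100B had 159 counts with a highest of 8, ALDH1L1 had 37 with a highest of 4, and SOX2 had 20 with a highest of 2 and none in 42 libraries. A floor of 3 counts corresponded to 0.101 CPM in the deepest library and 0.146 CPM in the shallowest. Pooled over all libraries, GFAP was at 0.0652 CPM (95% exact binomial interval 0.0529 to 0.0794), S100B at 0.106 (0.0900 to 0.124), ALDH1L1 at 0.0246 (0.0173 to 0.0339) and SOX2 at 0.0133 (0.00813 to 0.0205). The intervals cover counting error only. The 6 expressed genes passed the filter on low counts and were tested, and these 4 did not pass it.

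No extract brought any of the 4 up to 1 CPM. The highest library of S100B had 0.321 CPM, that of GFAP 0.259, that of ALDH1L1 0.155 and that of SOX2 0.0807. GFAP had 4 counts in the 3 vehicle libraries, 8 in the medium dose of Cnidium, which was the largest sum of any group, and 0 in the high dose of Cinnamon. S100B had 6 counts in the vehicle and from 3 to 15 in the other groups of 3. S100B had 2, 1 and 3 counts in the vehicle libraries, 4, 6 and 4 with high-dose Cnidium, 4, 4 and 4 with high-dose Cinnamon and 5, 4 and 6 with low-dose Cinnamon. Every library of these 3 extract groups was above the vehicle libraries, by at most 5 counts. Low-dose Samul, with 4 and 3 counts, and high-dose Angelica, with 4, were above the vehicle libraries in CPM. The Paeonia libraries, with 0, 0 and 1 counts at the high, medium and low dose, were below them. Among the genes that passed the filter, 30.5% did not overlap the vehicle with high-dose Cnidium. This share was 46.7% with high-dose Cinnamon, 23.4% with low-dose Cinnamon and 50.8% with low-dose Samul. The 4 genes were not tested.

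**Figure D1:**
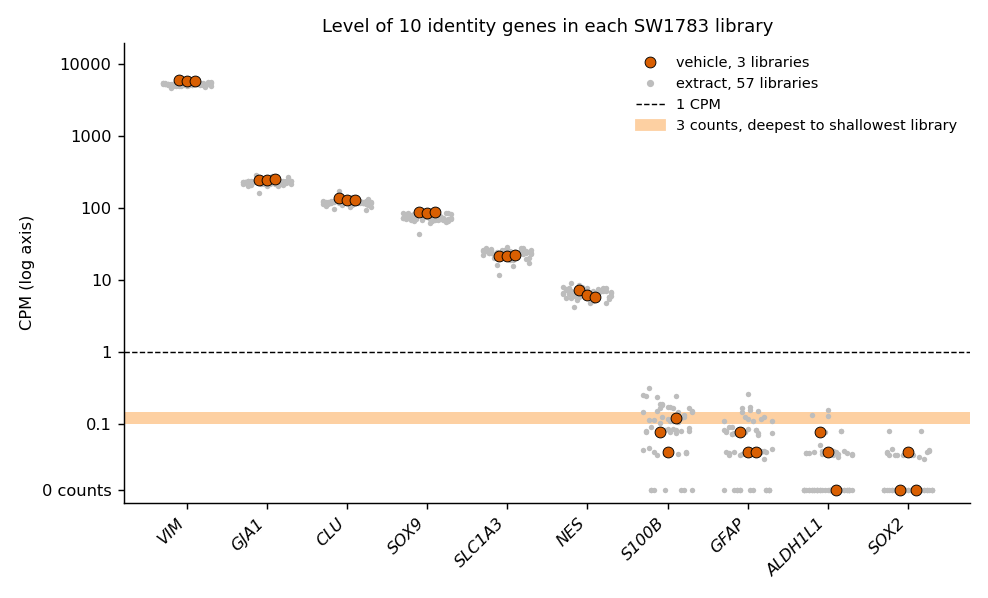
The plot shows the level of each of the 10 genes (CPM on a log axis) in every library, with vehicle in orange, extracts in grey, libraries without a count at the foot, a dashed line at 1 CPM and a band at the level of 3 counts. VIM, GJA1, CLU, SOX9, SLC1A3 and NES lie above 1 CPM in all 60 libraries, and S100B, GFAP, ALDH1L1 and SOX2 lie below it in all.

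Read against its defining markers, the line held some astrocyte transcripts and lacked others. In a list of 24 other astrocyte genes, 10 were at 1 CPM or more in every vehicle library and 8 were under 0.1 CPM on average. CD44, a hyaluronan receptor, led the expressed ones with 2772 ± 19.9 CPM, and GLUL (glutamine synthetase) had 49.9 ± 1.77. The water channel AQP4 and the connexin GJB6 had no count in the vehicle, and the glutamate transporter SLC1A2 had 0.293 ± 0.185 CPM. In a list of 24 neural progenitor genes, 13 were expressed, led by the matrix protein TNC at 1042 ± 20.7 CPM. FABP7 was at 0.0135 ± 0.0233 CPM, PTPRZ1, PROM1 and SOX11 had no count in the vehicle, and PAX6 was at 7.18 ± 0.572 CPM. Of 24 genes of reactive astrocytes, 16 were expressed, among them CHI3L1 at 1277 CPM and TIMP1 at 1104 CPM.

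Markers of other cell types were read in the same libraries. All 10 fibroblast and smooth muscle markers were expressed in the vehicle, summing to 12530 to 12717 CPM, with FN1 (fibronectin) at 5613 ± 113 and COL1A1 at 4131 CPM. Of 12 neuron markers 5 were expressed (summed level 187 to 189 CPM), of 11 oligodendrocyte markers 4 (325 to 335), of 9 microglia and leukocyte markers 3 (166 to 178), of 7 endothelial markers 2 (31.8 to 33.0) and of 8 epithelial markers 1 (2.87 to 3.59). The defining genes SOX10 and MOG of oligodendrocytes and AIF1 of microglia were at 0 in the vehicle, and the neuronal RBFOX3 was at 0.1202 CPM. Other markers of the same lists were present: CSPG4 at 173 and CNP at 128 CPM (oligodendrocyte list), CD68 at 162 (microglia and leukocyte list) and TUBB3 at 114 (neuron list).

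Total counts ran from 20604748 to 29609771 per library. The first part of the sample codes puts Cnidium with Rehmannia, Cinnamon with Astragalus, Sagunja with Samul and Angelica with Paeonia. It puts the vehicle in a set of its own. In every comparison with vehicle, the extract, the set and any difference in DMSO therefore cannot be told apart. Comparisons within a set do not have the set difference. The labels give no DMSO percentage for these doses or extracts, so a difference in DMSO cannot be told apart there either. The titles of all 60 libraries, vehicle included, bear the same label, BatchB. The first replicate of the low dose of Sagunja stood apart. Over 9819 genes, the SD of its log2 difference from its replicates was 0.796 and 0.762, and no other pair of replicates exceeded 0.247. It had 43.7 CPM of SOX9 against 68.5 and 72.9 in its replicates, 11.6 of SLC1A3 against 24.8 and 26.3, 162 of GJA1 against 236 and 243, and 171 of CLU against 119.9 and 106. Because all groups shared 1 estimate of the spread, this library also bore on comparisons it was not part of. Of the 180 values tested in 30 comparisons, 22 passed an adjusted p of 0.05 with it and 59 without it, 20 of them the same. The share of all genes called moved too. Without it the share was 35.9% in place of 22.8% for high-dose Cinnamon against vehicle and 13.4% in place of 4.13% for high-dose Samul. For low-dose Sagunja against vehicle it was lower, at 11.4% in place of 22.1%, and from its low to its high dose, at 6.49% in place of 20.5%.

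Changes are log2 fold changes ± standard error from edgeR's quasi-likelihood test, with n = 3 per group (n = 2 for Samul). Genes were called at a Benjamini-Hochberg adjusted p under 0.05 among 17516 genes. In these bulk samples fewer cells of a type and less RNA per cell cannot be told apart. Over the 18 comparisons with vehicle, 13 of 108 values of the 6 expressed genes were called, all lower with extract, where 5.46% of all values were called and 2.45% were called lower. These comparisons share the same 3 vehicle libraries. In them the groups did not overlap for 22.7% (low-dose Cnidium) to 50.8% (low-dose Samul) of all genes tested. At the high dose this share was 46.7% with Cinnamon, 47.2% with Sagunja, 31.7% with Rehmannia, 30.5% with Cnidium and 27.4% with Astragalus. Between the low and the high dose it was 41.5% with Cinnamon and 17.4% with Sagunja. In a test of any difference among the 19 groups with replicates, which 34.1% of genes passed, 5 of the 6 genes were called by edgeR. The adjusted p was 0.00105 for GJA1, 0.00116 for NES, 0.00148 for SLC1A3, 0.00219 for SOX9 and 0.0242 for VIM, and CLU did not pass at 0.0667.

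**Figure D2:**
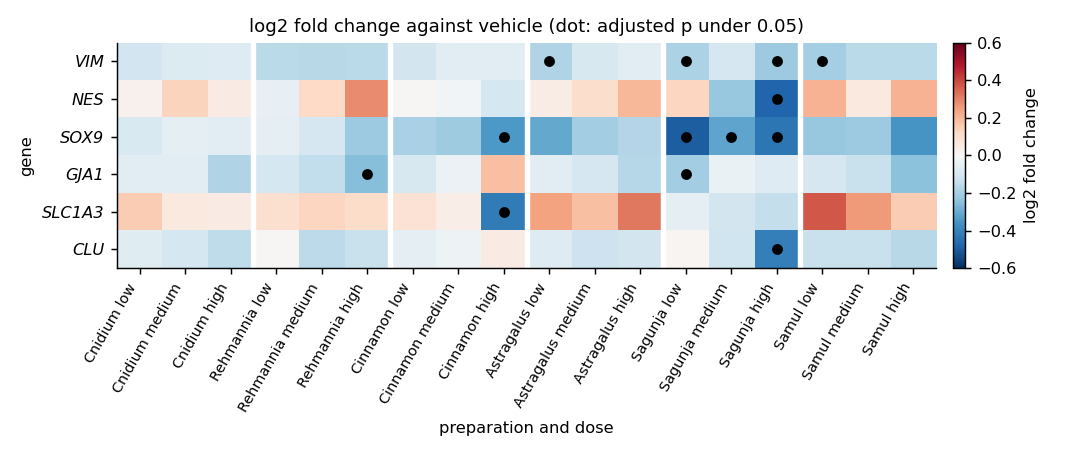
The heat map gives the log2 fold change against vehicle of the 6 expressed genes (rows) for 6 preparations at 3 doses (columns), on a colour scale from -0.6 in blue to 0.6 in red, with a black dot where the adjusted p was under 0.05. The dots are all on blue fields: 4 on VIM, 4 on SOX9, 2 on GJA1 and 1 each on NES, SLC1A3 and CLU.

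From the low to the high dose of Cinnamon the genes of both membrane proteins changed, in opposite directions. SLC1A3, the glutamate transporter, stood at 16.01, 15.8 and 17.3 CPM with the high dose of Cinnamon, against 21.7, 21.8 and 22.7 in the vehicle. All Cinnamon libraries were below all vehicle libraries. The difference was -0.42 ± 0.13 (it fell by 25.1%; edgeR adjusted p = 0.0126), in a comparison where 22.8% of genes were called and 2 of the 6 members were, both lower (10.9% of all genes were called lower). At the medium dose SLC1A3 was at 21.5, 23.0 and 23.1 CPM and at the low dose at 22.6, 22.3 and 25.1, so only the high dose lay wholly below the vehicle. Against the low dose, within the set, the high dose differed by -0.51 ± 0.13 (edgeR adjusted p = 0.00244; 21.6% of genes called).

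GJA1, the connexin, went the other way in the same libraries. It had 286, 278 and 275 CPM at the high dose of Cinnamon, 243, 246 and 236 at the medium dose and 225, 239 and 229.8 at the low dose. The high dose was above the low dose in every library, by 0.28 ± 0.07 (21.2% higher; edgeR adjusted p = 0.00265). The vehicle libraries, at 251, 245 and 252 CPM, lay between the high and the low dose. Against the vehicle the high dose had a difference of 0.18 ± 0.07 (95% interval 0.04 to 0.32), which did not pass the test (edgeR adjusted p = 0.0556). Without the library that stood apart it was 0.17 with an edgeR adjusted p of 0.000105, where 35.9% of genes were called.

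Astragalus, from the same set, did not share this pattern. SLC1A3 was at 26.0, 28.2 and 27.8 CPM at its high dose and GJA1 at 219.7, 216 and 225. At the high dose, Cinnamon differed from Astragalus by -0.73 ± 0.12 for SLC1A3 (edgeR adjusted p = 1.29e-05) and by 0.35 ± 0.07 for GJA1 (27.4% higher; edgeR adjusted p = 0.000124). The groups did not overlap for either gene, nor for 42.9% of all genes tested, and 27.6% of genes were called in this comparison. The effect of dose itself also differed between the extracts. The change from low to high dose with Cinnamon differed from that with Astragalus by -0.58 ± 0.17 for SLC1A3 (edgeR adjusted p = 0.0192) and by 0.39 ± 0.10 for GJA1 (edgeR adjusted p = 0.00494), where 14.4% of genes were called. Without the third low-dose library of Cinnamon the SLC1A3 difference was -0.52 and did not pass (adjusted p = 0.0535). In Astragalus itself the change from low to high dose was 0.07 for SLC1A3 (95% interval -0.17 to 0.32) and -0.11 for GJA1 (-0.25 to 0.03), and neither passed.

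GJA1 was lower with the high dose of Rehmannia, at 205, 211 and 206 CPM, below all vehicle libraries. The difference was -0.26 ± 0.07 (it fell by 16.2%; edgeR adjusted p = 0.0343), the only member called in a comparison where 2.37% of genes were. The call was lost when any 1 library of the compared groups was left out, with adjusted p of 0.0822 to 0.125. At the medium dose of Rehmannia GJA1 was at 219.5, 224 and 227 CPM and at the low dose at 229, 228 and 233. The high dose differed from the low dose by -0.15 ± 0.07, which did not pass (edgeR adjusted p = 0.544, 0.805% of genes called). Without the library that stood apart this difference was called too, at -0.15 (edgeR adjusted p = 0.00712), with 3.51% of genes called. Samul had 216 and 201 CPM of GJA1 at its high dose, a difference of -0.25 ± 0.08 that did not pass (edgeR adjusted p = 0.0607). In that comparison no member and 4.13% of genes were called. Mean GJA1 was 218 CPM with high-dose Cnidium, 220 with Astragalus, 234 with Sagunja and 280 with Cinnamon, against 249 in the vehicle.

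**Figure D3:**
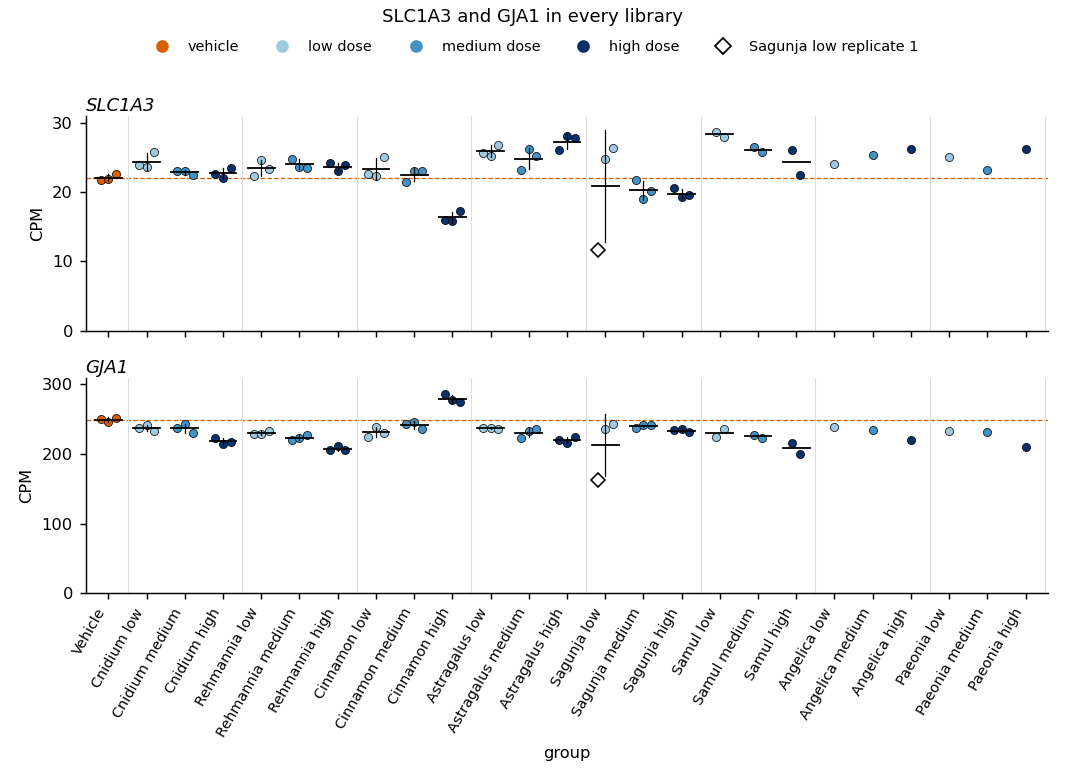
The panels show SLC1A3 and GJA1 in CPM (axis from 0) in every library, by group, with points for libraries, bars for the group mean, thin lines for the SD of groups of 3, a dashed line at the vehicle mean and a diamond for the first low-dose library of Sagunja. The high dose of Cinnamon is the lowest group for SLC1A3 and the highest for GJA1.

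The first bases before the annotated start of these 2 genes are shown because both levels changed with Cinnamon, in opposite directions. Of the 3 windows of SLC1A3, the one shown was picked because it holds an AP-1 site, as the GJA1 window does. The shared site thus follows from this choice, and its part in the changes was not tested. RefSeq promoter windows of GRCh38.p14 were matched by symbol for 6 of the 10 genes. The start of a window is a transcript start of RefSeq, which can differ from the GENCODE gene start given above: the bases shown for SLC1A3 lie inside the GENCODE gene, and those for GJA1 run past the GENCODE start. The windows were searched on both strands, in the 250 bases before the RefSeq start, for the AP-1 site TGAGTCA, the core of the antioxidant response element TGACNNNGC and the GC box GGGCGG. Among 35116 windows, 4.2% held the first, 10.9% the second and 42.6% the third. GJA1 has its AP-1 site 48 bases before its RefSeq start, in chr6:121435396-121435645 on the plus strand. SLC1A3 has 3 windows, of which the one at chr5:36606704-36606953 on the plus strand holds an AP-1 site 26 bases before its RefSeq start. Another SLC1A3 window holds the antioxidant response element core and the remaining window holds a GC box. Capitals mark the AP-1 site, and these matches are a description of the letters and did not overlap other motifs.
SLC1A3: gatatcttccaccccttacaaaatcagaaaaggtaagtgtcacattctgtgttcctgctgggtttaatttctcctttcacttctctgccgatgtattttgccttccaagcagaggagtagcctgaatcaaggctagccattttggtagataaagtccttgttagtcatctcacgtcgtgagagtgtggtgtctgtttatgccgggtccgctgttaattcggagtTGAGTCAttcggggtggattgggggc
GJA1: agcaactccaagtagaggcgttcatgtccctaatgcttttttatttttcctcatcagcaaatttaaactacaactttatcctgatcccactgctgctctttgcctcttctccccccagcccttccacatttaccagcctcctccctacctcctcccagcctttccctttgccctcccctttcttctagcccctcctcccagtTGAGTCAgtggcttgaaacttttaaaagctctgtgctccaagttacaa

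The filament genes NES and VIM and the transcription factor SOX9 were lower at the high dose of Sagunja. NES, the filament of progenitors, was at 4.22, 4.81 and 4.79 CPM at the high dose, below the vehicle libraries at 7.37, 6.26 and 5.75. It fell by 28.0% (-0.47 ± 0.12; edgeR adjusted p = 0.00477). With the first vehicle library left out the difference was -0.36 and did not pass (adjusted p = 0.0678). The high dose of Sagunja against vehicle had 4 of the 6 genes called, all lower, with 17.1% of all genes called and 8.11% called lower. The median log2 fold change of the 6 genes was -0.31, and that of all genes 0.02. Without the low-dose library that stood apart, all 6 genes were called lower and 30.9% of all genes were called: SLC1A3, at 20.5, 19.2 and 19.6 CPM, then differed by -0.16 (adjusted p = 0.0436) and GJA1 by -0.09 (adjusted p = 0.0364).

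The NES difference was also seen without the vehicle. NES was at 5.39, 5.18 and 5.86 CPM at the medium dose of Sagunja and at 8.63, 5.61 and 6.95 at the low dose, so the high dose was below every library of the other doses. From low to high dose the difference was -0.60 ± 0.12 (edgeR adjusted p = 0.000642, 20.5% of genes called). Without the low-dose library that stood apart it was -0.44 (edgeR adjusted p = 0.0239, 6.49% of genes called). When the spread was taken from these 6 libraries alone, the calls of NES and CLU between the doses were lost (adjusted p = 0.768 for both). Samul, the other formula of the set, had 7.35 and 7.46 CPM at its high dose. NES was lower with Sagunja than with Samul (-0.68 ± 0.13; edgeR adjusted p = 0.000274), the only member called in a comparison where 8.36% of genes were. Without the library that stood apart, CLU (-0.25, adjusted p = 0.0138), SLC1A3 (-0.30, adjusted p = 0.000638) and GJA1 (0.17, adjusted p = 0.00119) were called as well, with 17.6% of genes called. The difference of the dose effects of the formulas was not called for any member, where 2.89% of genes were called.

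The NES window is shown because, of the 6 genes, NES had the widest fall at the high dose of Sagunja. It lies at chr1:156677408-156677657 on the minus strand. It holds a GC box 62 and 50 bases before the start, both on the opposite strand, set in capitals, and neither of the other motifs.
NES: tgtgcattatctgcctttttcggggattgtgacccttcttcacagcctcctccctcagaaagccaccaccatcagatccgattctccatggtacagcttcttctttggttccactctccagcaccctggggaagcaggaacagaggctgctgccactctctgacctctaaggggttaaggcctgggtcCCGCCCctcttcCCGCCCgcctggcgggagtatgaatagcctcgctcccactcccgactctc

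CLU, the secreted chaperone, was at 96.2, 103 and 95.7 CPM at the high dose of Sagunja. In the vehicle it was at 138, 129.6 and 129, above all of these. It fell by 24.8% (-0.41 ± 0.09; edgeR adjusted p = 0.00172). The medium dose had 141, 109.7 and 111 CPM and overlapped the vehicle. Against the low dose the difference was -0.42 ± 0.09 (edgeR adjusted p = 0.00191). Without the low-dose library that stood apart, where CLU was highest of all libraries at 171 CPM, it was -0.19 and did not pass (adjusted p = 0.124). SLC1A3 was then called lower in the high than in the low dose (-0.36, adjusted p = 9.10e-05), with 6.49% of genes called. At the high dose of Cinnamon CLU was at 132, 143 and 131 CPM and did not differ detectably from the vehicle (0.05, 95% interval -0.14 to 0.24; edgeR adjusted p = 0.765).

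SOX9, the glial transcription factor, was lower at all doses of Sagunja. The high dose had 66.2, 62.5 and 64.7 CPM, the medium dose 70.3, 69.5 and 70.4 and the low dose 43.7, 68.5 and 72.9, against 89.8, 85.5 and 88.6 in the vehicle. No Sagunja library reached the lowest vehicle library. The differences were -0.43 ± 0.10 at the high dose (it fell by 25.9%; edgeR adjusted p = 0.00155), -0.31 ± 0.10 at the medium dose (edgeR adjusted p = 0.0469, 1 member called, 6.32% of genes called) and -0.49 ± 0.10 at the low dose (edgeR adjusted p = 0.000890, 3 members called, 22.1% of genes called). The medium-dose call was lost in 8 of 15 alternatives, among them each left-out vehicle or medium-dose library. Without the library that stood apart the low-dose difference was -0.32 (edgeR adjusted p = 0.00374), with 11.4% of genes called. From low to high dose of Sagunja SOX9 differed by 0.06 ± 0.10 (95% interval -0.14 to 0.26), which did not pass.

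SOX9 was also lower with the high dose of Cinnamon, at 73.6, 65.9 and 66.6 CPM. All were below the vehicle (-0.34 ± 0.10; edgeR adjusted p = 0.00908). Against the low dose of Cinnamon the difference was -0.15 (95% interval -0.35 to 0.05), and against the high dose of Astragalus -0.17 (-0.37 to 0.03), and neither passed. The high dose of Samul had 68.9 and 67.7 CPM of SOX9, a difference of -0.35 ± 0.11 that did not pass (edgeR adjusted p = 0.0607). Without the library that stood apart SOX9 with Samul was called (-0.36, adjusted p = 0.000509), as was GJA1 (-0.26, adjusted p = 3.53e-06), with 13.4% of genes called. SOX9 at the high dose of Sagunja and of Samul differed by -0.08 (95% interval -0.31 to 0.14).

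VIM, the most abundant member, was lower by small amounts. At the high dose of Sagunja it was at 4941, 5241 and 4888 CPM, below all vehicle libraries, and it fell by 14% (-0.22 ± 0.05; edgeR adjusted p = 0.00178). It was also called at the low dose of Sagunja (5021, 5357 and 5006 CPM; -0.19 ± 0.05, edgeR adjusted p = 0.00767). At the low dose of Astragalus (5281, 5141 and 5094 CPM) the difference was -0.18 ± 0.05 (edgeR adjusted p = 0.0308, 1 member and 3.67% of genes called). At the low dose of Samul (5049 and 5092 CPM) it was -0.21 ± 0.06 (edgeR adjusted p = 0.0371, 1 member and 2.62% of genes called). The calls with Astragalus and Samul were lost when any 1 library of the compared groups was left out. No comparison within a set called VIM: from low to high dose its difference ran from -0.03 to 0.12 over the 6 preparations.

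At the low dose of Sagunja several results changed with the library that stood apart. When the spread was taken from these and the vehicle libraries alone, the low-dose calls of VIM, SOX9 and GJA1 were lost (adjusted p = 0.747 for VIM and SOX9 and 0.748 for GJA1). GJA1 was called lower there (-0.21 ± 0.07; edgeR adjusted p = 0.0265), and without that library the difference was -0.06 and did not pass (adjusted p = 0.297). CLU and SLC1A3 turned direction. CLU differed by 0.01 with it and by -0.23 without it (edgeR adjusted p = 0.0360). SLC1A3 differed by -0.05 with it and by 0.21 without it (edgeR adjusted p = 0.0306). Without that library 11.4% of all genes were called.

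**Figure D4:**
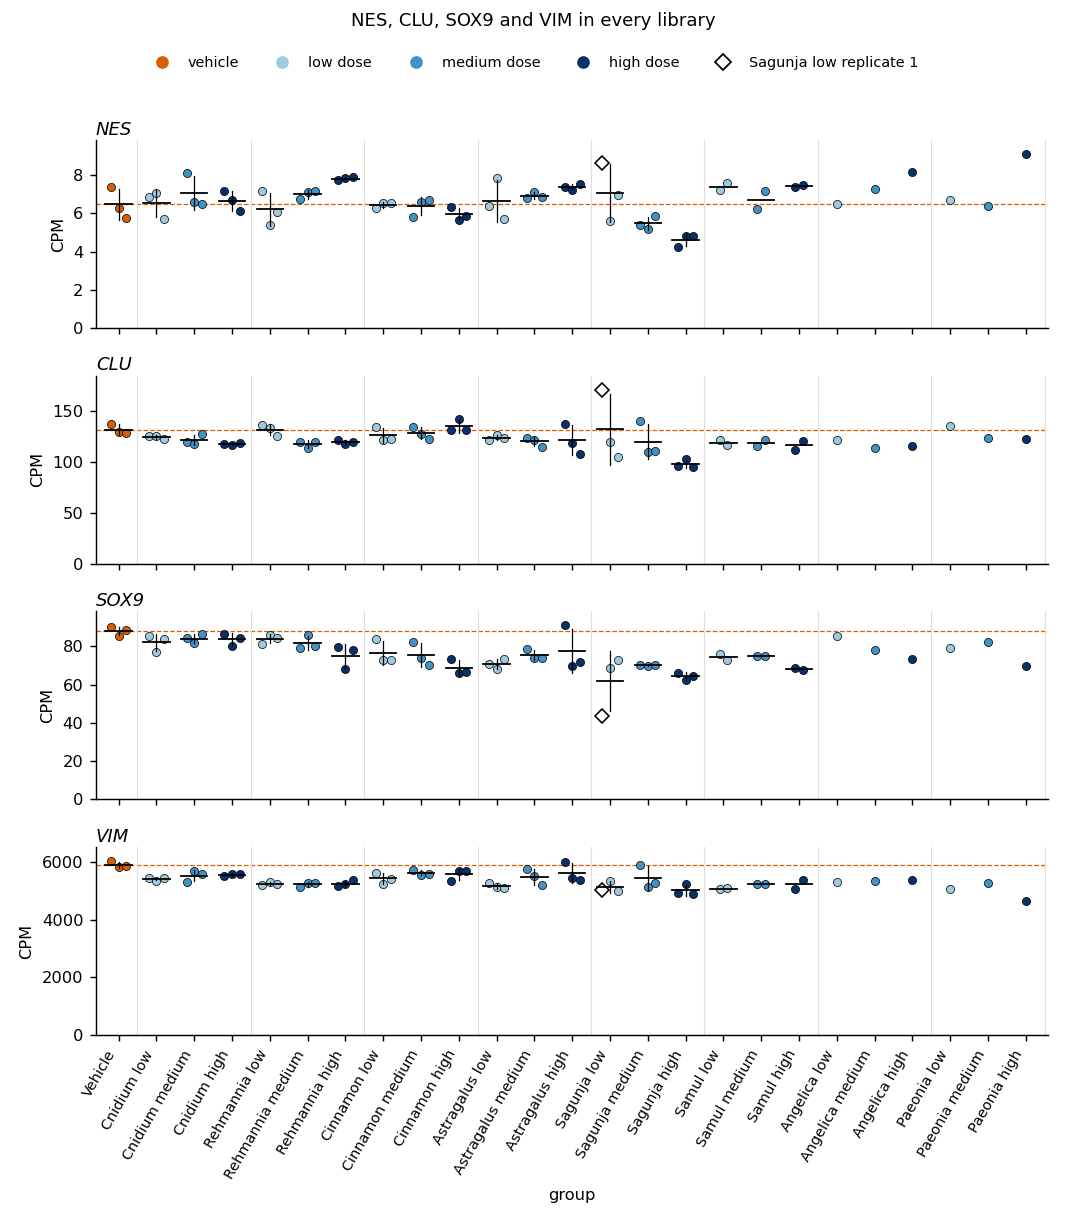
The panels show NES, CLU, SOX9 and VIM in CPM (axes from 0) in every library, by group, drawn as points with the group mean, the SD of groups of 3, a dashed line at the vehicle mean and a diamond for the first low-dose library of Sagunja. Among the groups with replicates the high dose of Sagunja is the lowest for NES, CLU and VIM, and the vehicle has the highest mean of VIM and SOX9. The single library of high-dose Paeonia is lower still for VIM.

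Over the 19 groups with replicates, VIM ran from 5024 CPM with the high dose of Sagunja to 5903 in the vehicle, a ratio of 1.18. GJA1 ran from 208 CPM with the high dose of Rehmannia to 279.6 with the high dose of Cinnamon, CLU from 98.3 with the high dose of Sagunja to 135 with the high dose of Cinnamon, and SOX9 from 61.7 with the low dose of Sagunja to 88.0 in the vehicle. SLC1A3 ran from 16.4 CPM with the high dose of Cinnamon to 28.3 with the low dose of Samul, and NES from 4.61 with the high dose of Sagunja to 7.81 with the high dose of Rehmannia, with ratios of 1.73 and 1.69. In each order of 19 group means most neighbours overlapped. Of the 18 neighbouring pairs, the libraries did not overlap in 2 for NES and GJA1 and in 1 for each of the other 4 genes. Of the 57 extract libraries, 55 were below every vehicle library for VIM, 53 for GJA1, 52 for SOX9 and 46 for CLU. For SLC1A3 39 were above every vehicle library and 11 below, and for NES 36 lay within the vehicle range. The same count of libraries was not made over all genes. In single comparisons with vehicle, 22.7% to 50.8% of all genes tested did not overlap it. The vehicle libraries formed a set of their own, as said above.

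Cnidium called no member at the high dose, where 1.35% of genes were called. Its largest member difference at the high dose was that of GJA1, at 224, 215 and 217 CPM, all below the vehicle (-0.18 ± 0.07; edgeR adjusted p = 0.244). Without the library that stood apart it was called (-0.19, edgeR adjusted p = 0.000192), with 5.56% of genes called. The high dose of Astragalus called no member either, with 4.45% of genes called. Its SLC1A3 libraries were all above the vehicle (0.31 ± 0.12; edgeR adjusted p = 0.159), and without the library that stood apart the difference was 0.31 (adjusted p = 0.000176), and GJA1 was called at -0.18 (adjusted p = 0.000163), with 12.7% of genes called. Between the high doses of Cnidium and Rehmannia no member was called, with 0.263% of genes called, nor between their dose effects, with 0.04%.

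No member was called either with the medium doses of Cnidium (0.297% of genes called), Rehmannia (0.714%), Cinnamon (2.29%), Astragalus (3.94%) and Samul (1.75%), or with the low doses of Cnidium (0.383%), Rehmannia (0.993%) and Cinnamon (1.06%). From low to high dose none was called with Cnidium (0.228%), Astragalus (0.28%) and Samul (0.736%). Among these groups SLC1A3 had its largest difference with the medium dose of Samul, at 0.26 (95% interval -0.02 to 0.53).

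Angelica and Paeonia had 1 library per dose, so there is no replicate check and no test. At the high dose of Paeonia NES was at 9.08 CPM, the highest of all 60 libraries, SOX9 at 69.6, VIM at 4659, the lowest of all libraries, and GJA1 at 209.7. As log2 ratios of CPM + 1 to the vehicle mean, these are 0.43 for NES, -0.33 for SOX9, -0.34 for VIM and -0.25 for GJA1. At the high dose of Angelica NES was at 8.15 CPM (0.29), SOX9 at 73.4 (-0.26) and GJA1 at 221 (-0.18). SLC1A3 was at 26.2 CPM in both high-dose libraries.

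Other genes of the same families or of related roles were read from fixed lists. Among 17 intermediate filament and linker genes, 13 were tested. High-dose Cinnamon called 7 of them lower and none higher, with a median of -0.27 where that of all genes was 0.00. As background for this and the following lists, 22.8% of all genes were called with high-dose Cinnamon (10.9% lower) and 17.1% with high-dose Sagunja (8.11% lower). KRT7, a simple keratin, was at 208 CPM against 649 in the vehicle (-1.63 ± 0.16; edgeR adjusted p = 1.02e-10), and DSP (desmoplakin), which anchors filaments at junctions, at 15.8 against 31.9 CPM. High-dose Sagunja called 6 lower and 1 higher, with a median of -0.30. KRT18, a simple keratin with many processed copies in the genome, so that its count is uncertain, was at 107 against 226 CPM, and the higher one was the neurofilament NEFL, at 11.9 against 7.14 CPM (0.75 ± 0.10; edgeR adjusted p = 2.31e-07). With Cinnamon NEFL was lower, at 4.19 CPM (-0.75 ± 0.11; edgeR adjusted p = 6.58e-07).

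Of 9 other genes of the SOX family 6 were tested. The high doses of Cinnamon and of Sagunja each called 2 lower and none higher, with medians of -0.30 and -0.20, where 10.9% and 8.11% of all genes were called lower. SOX7 fell from 20.7 to 10.3 CPM with Cinnamon, and SOX12 from 25.8 to 19.4 CPM with Sagunja. Of 24 neural progenitor genes 13 were tested. Cinnamon at its high dose called 3 lower, led by ID4, an inhibitor of basic helix-loop-helix factors, at 0.619 against 2.86 CPM (-2.18 ± 0.17; edgeR adjusted p = 1.54e-13). ID4 was the only list member called lower with Sagunja, at 2.01 CPM, and the only one called with Astragalus, where it was higher at 4.62 CPM (0.70 ± 0.13; edgeR adjusted p = 0.000408). Rehmannia called ID4 lower and HOPX, a homeodomain-only protein, higher.

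Of 15 gap junction and glutamate transporter genes 9 were tested. High-dose Cinnamon called 2 higher and 1 lower, where 22.8% of all genes were called, and against its low dose 5 higher and 1 lower, where 21.6% were. The cystine and glutamate exchanger SLC7A11 was at 227 CPM against 99.1 in the vehicle (1.21 ± 0.12; edgeR adjusted p = 2.73e-10), and it was also called higher with the high doses of Cnidium (152 CPM), Rehmannia (149 CPM) and Samul (145 CPM). The neutral amino acid transporter SLC1A5 was higher in the high than in the low dose of Cinnamon, at 336 against 268 CPM, and lower with Sagunja than in the vehicle, at 240.4 against 299 CPM.

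Among 24 other astrocyte genes, 14 were tested. Here high-dose Cinnamon called 4 lower and 1 higher, with a median of -0.19. ALDOC, an aldolase of astrocytes, was at 17.5 against 5.82 CPM (1.60 ± 0.12; edgeR adjusted p = 2.64e-14), and PLPP3, a lipid phosphatase, at 20.9 against 44.7 CPM (-1.08 ± 0.12; edgeR adjusted p = 1.07e-09). High-dose Sagunja called only GLUL, the enzyme that turns glutamate into glutamine, at 39.8 against 49.9 CPM (-0.31 ± 0.07; edgeR adjusted p = 0.000758). Of 24 reactive astrocyte genes 20 were tested. Sagunja called 4 higher and 4 lower, where 17.1% of all genes were called, and complement C3 was at 171 against 45.7 CPM (1.92 ± 0.07; edgeR adjusted p = 2.49e-23) and the pentraxin PTX3 at 162 against 32.4 CPM (2.33 ± 0.11; edgeR adjusted p = 9.16e-21). Cinnamon called 2 higher and 4 lower, with the proteoglycan VCAN at 382 against 676 CPM.

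Relatives of S100B, ALDH1L1 and CLU were read too. Of 14 S100 genes 10 were tested and 8 were expressed. With high-dose Cinnamon S100A6 and S100A2 were called higher, and with Sagunja none was called. Of 11 folate enzyme genes 10 were tested, and Cinnamon called 3 higher and 2 lower, and Sagunja none higher and 1 lower, where 22.8% and 17.1% of all genes were called. Of 13 extracellular chaperone and apolipoprotein genes 10 were tested. Cinnamon called 4 higher and none lower, among them the apolipoprotein APOL1 (29.9 against 25.1 CPM), and Sagunja called 1 higher, APOL1 at 32.9 CPM, and 1 lower.

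The fibroblast and smooth muscle markers moved beside the members. In high-dose Cinnamon libraries 5 of the 10 were called lower, where 10.9% of all genes were, and their summed level was 9286 to 9943 CPM per library against 12530 to 12717 in the vehicle. With Sagunja 7 of 10 were called lower, where 8.11% of all genes were, at a sum of 10421 to 11079 CPM, and their median was -0.43. Neuron markers were lower with Cinnamon in 4 of 5 tested, and their sum was 143 to 149 CPM with Cinnamon and 135 to 142 with Sagunja against 187 to 189. Microglia and leukocyte markers summed to 205 to 235 CPM with Cinnamon, with 1 called higher and 1 lower of 3 tested. For oligodendrocyte markers it was 1 and 1 of 5, and of 4 endothelial and 2 epithelial markers none was called with Cinnamon or Sagunja. The part of these markers in the members' differences was not tested.

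By group means of log2(CPM + 1) over 19 groups, leaving out the library that stood apart, the gene most like each member among 9518 genes was CREB3L1 for SOX9 (Pearson's r = 0.96), PLPPR4 for SLC1A3 (0.94), GMDS for CLU (0.93), LAPTM4B for GJA1 (0.92), SH3PXD2A for NES (0.91) and CCNK for VIM (0.84). Next came MAZ and CALM3 for SOX9, TCAF1 and MEIS1 for SLC1A3, TBC1D20 and RAB15 for CLU, MEPCE and TLE1 for GJA1, PCYOX1L and NAALADL2 for NES, and THSD1 for VIM. With the library kept, CREB3L1, GMDS and CCNK were still first and PLPPR4 had rank 7. SH3PXD2A then had r = 0.62 and rank 273 for NES, LAPTM4B r = 0.64 and rank 379 for GJA1, and MAZ r = 0.37 and rank 2494 for SOX9. Over the 54 single libraries SH3PXD2A had r = 0.26, LAPTM4B r = 0.23 and MAZ r = -0.01. There CREB3L1 had r = 0.82 and rank 74, GMDS r = 0.60 and rank 617, CCNK r = 0.70 and rank 12, and PLPPR4 r = 0.88 and rank 8. Between the members the strongest values were 0.63 for NES with SLC1A3, 0.61 for VIM with CLU and -0.61 for SLC1A3 with GJA1. The points share libraries, sets and scaling, and these values are a description.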

How the data were processed

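RNA of 60 libraries was sequenced, and the authors deposited a table of expected counts per gene. Per the submitters' processing notes, FastQC 0.11.9, Trim Galore 0.6.5, STAR 2.7.3a, RSEM 1.3.3 and the build hg38 were used. Of 279 columns, 60 matched labels of these samples and 219 were not used. Counts, of which 90.67% had no fractional part, were rounded. Gene symbols came from a table of gene names that matched 56558 of 60675 identifiers.

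Groups were taken from the labels. edgeR 4.0.16 (R 4.3.3) was used with TMM factors (0.935 to 1.028), filterByExpr and a robust quasi-likelihood fit over the 19 groups with 2 or more libraries (54 libraries, 35 residual degrees of freedom, biological coefficient of variation 0.095). The 30 tests (18 against vehicle, 6 from low to high dose, 3 of one extract against another and 3 of their dose effects) were each adjusted by Benjamini-Hochberg over 17516 genes. CPM used TMM-scaled library sizes. Total counts of 20604748 to 29609771 per library set the precision of genes with few counts.

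The alternatives were other normalizations, filters, DESeq2 1.42.0, a replicate block, the compared groups alone and each library left out. Same-numbered libraries had deviations that correlated at -0.47 to 0.47 over 27 comparisons and 9819 genes. Every pair was over 0.1 in 5 of them, and the labels do not say that numbers pair samples.

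The members and lists were chosen with earlier results of these data known. Genes named from a list are among the 4 called members with the largest absolute change in a comparison, with means under 1 CPM in both groups left out, or markers that check the line's identity. The genes named as like a member are the 3 with the highest Pearson's r among genes of at least 5 CPM. Some genes that these rules pick are not reported here. The model was tested on simulated data.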

Additional observations from a re-analysis of the deposited data

Results flagged for a closer look

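The change from the low to the high dose differed between Cinnamon and Astragalus for a pair of the 6 expressed genes, by a test of the difference itself in edgeR. In this test 14.4% of all genes were called. For SLC1A3 the difference of the dose effects was -0.58 ± 0.17 (adjusted p = 0.0192), with a change of -0.51 in Cinnamon and 0.07 in Astragalus. For GJA1 it was 0.39 ± 0.10 (adjusted p = 0.00494), with a change of 0.28 in Cinnamon and -0.11 in Astragalus. All 4 groups have 3 libraries and belong to the same set by their sample codes. The SLC1A3 call was lost without low-dose library 3 of Cinnamon.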

How the results depend on the processing

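Of 180 values, 22 were called in the reported analysis, 24 with DESeq2's size factors in edgeR, 18 with library size alone (17 of them the same), 18 with a summed count of at least 10, 26 with a mean of at least 5 CPM, 22 with a robust dispersion and 31 with DESeq2. With only the groups compared it was 54, of which 17 were the same. The planned fit with no filter could not be fitted and was not run, and the summed count of at least 10 was chosen in its place after seeing the data. With the replicate block 23 were called, 1 gained and 0 lost, and within sets 10 of 72 in place of 9.

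Calls with the high dose of Cnidium were 0 as reported, 2 with only the groups compared, and 0 to 1 with a library left out. With Rehmannia they were 1, against 0 with library size alone, 0 with a summed count of at least 10, 4 with only the groups compared, 2 with DESeq2 and 0 to 3 with a library left out. From low to high dose Rehmannia had 0, against 1 and 0 to 1. With Astragalus they were 0, against 2 and 0 to 2. From low to high dose Sagunja had 2, against 0 with only the groups compared. With Samul they were 0, against 1 with DESeq2's size factors, 1 with a mean of at least 5 CPM, 3 with only the groups compared, 3 with DESeq2 and 0 to 3 with a library left out. The medium doses had 1, against 0 with library size alone, 0 with a summed count of at least 10, 12 with only the groups compared, 3 with DESeq2 and 0 to 11 with a library left out. The low doses had 5, against 2 with library size alone, 3 with a summed count of at least 10, 11 with only the groups compared and 2 to 14 with a library left out. Between extracts there were 3, against 6 with only the groups compared and 3 to 8. Between dose effects there were 2, against 1 to 5: 1 without low-dose library 3 of Cinnamon and 5 without low-dose library 2 or 3 of Sagunja. The highest values with a library left out, other than 5, came without the first low-dose library of Sagunja. The share of all genes called moved as well. With high-dose Rehmannia it was 2.37% as reported, 15.5% with only the groups compared and 7.65% without that library. From low to high dose of Sagunja it was 20.5%, 0.14% and 6.49% in the same order.

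Directions turned with a library left out for CLU (-0.23 to 0.15) and SLC1A3 (-0.24 to 0.21) at the low dose of Sagunja. For NES in single libraries near the vehicle, the log2 ratio with a vehicle library left out ran from -0.061 to 0.097 for Angelica low, from -0.079 to 0.079 for Paeonia medium, where NES was at 0.028 with library size alone, and from -0.025 to 0.13 for Paeonia low. Why these values moved was not tested.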
